A study of Mus musculus with 35 samples.

Results

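Retinoic acid drives germ cells of the testis into meiosis, and 9 genes that supply it, remove it, bind it or respond to it were followed here through every group of a mouse testis array study: Stra6, Rdh10, Aldh1a1, Aldh1a2, Crabp1, Cyp26b1, Rara, Rarg and Stra8. They were chosen by symbol, with earlier results of these data known. All 9 were present on both array types, with 9 probe sets of 21789 with 1 symbol at postnatal day 15 and 11 of 34958 at day 25, and all 9 passed the filter on low values at both ages, where 16710 of 19938 and 16305 of 18194 genes were tested.

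The RNA came from whole testes of male C57BL6 mice and was hybridised to 1 array per mouse. The groups crossed Akt1 genotype (homozygous for the mutation, Akt1-/-, heterozygous, Akt1+/-, or wild type, Akt1+/+) with exposure to the thyroid-suppressing drug 6-N-propylthiouracil (PTU) or no exposure, at postnatal days 15 and 25. Every group had 3 arrays except PTU-exposed homozygous mice at day 25, which had 2, because the authors left out a chip of poor quality. The dose and days of exposure, and the part of Akt1 that was deleted, were not given by the sources used here. The 2 ages were run on different array types, so no level is compared between them, and no level is compared between genes. All levels are log2 intensities.

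Retinol enters cells through the membrane receptor STRA6, is oxidised to retinaldehyde by enzymes such as RDH10, and is turned into retinoic acid by the aldehyde dehydrogenases ALDH1A1 and ALDH1A2. CRABP1 holds retinoic acid in the cytoplasm, CYP26B1 destroys it, and the nuclear receptors RARA and RARG carry its signal to genes. In the testis, Sertoli cells and germ cells share these steps, and spermatogonia that respond turn on Stra8, which is needed for entry into meiosis.

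Shown are the 250 bases before a start site of the response gene Stra8, the buffer gene Crabp1 and the hydroxylase gene Cyp26b1, from RefSeq (mouse build GRCm38.p6). They are shown because receptor dimers of retinoic acid bind pairs of the hexamer AGGTCA. In that build Stra8 spans 34920163 to 34939344 and Cyp26b1 84571414 to 84593908 on chromosome 6. The stretch shown for Stra8 therefore lies within the gene, and that for Cyp26b1 partly within it. A window of 300 bases around a start site was matched for 8 of the 9 genes (16 windows), all but Rdh10. For Stra8, chr6:34920698-34920947 on the plus strand, capitals mark AGGTCA. For Crabp1 (chr9:54764498-54764747, plus strand) and Cyp26b1 (chr6:84593811-84594060, minus strand), capitals mark the GC-rich hexamer GGGCGG on either strand.
Stra8: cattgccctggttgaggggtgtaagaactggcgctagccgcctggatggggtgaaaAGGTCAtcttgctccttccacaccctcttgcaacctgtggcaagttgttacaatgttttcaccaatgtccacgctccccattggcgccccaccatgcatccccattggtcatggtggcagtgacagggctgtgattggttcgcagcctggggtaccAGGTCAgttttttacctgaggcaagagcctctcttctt
Crabp1: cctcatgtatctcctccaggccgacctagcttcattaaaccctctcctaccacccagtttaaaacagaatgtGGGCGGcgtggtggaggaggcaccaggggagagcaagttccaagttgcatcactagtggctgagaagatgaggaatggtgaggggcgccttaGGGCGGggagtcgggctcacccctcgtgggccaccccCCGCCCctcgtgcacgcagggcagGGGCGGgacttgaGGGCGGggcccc
Cyp26b1: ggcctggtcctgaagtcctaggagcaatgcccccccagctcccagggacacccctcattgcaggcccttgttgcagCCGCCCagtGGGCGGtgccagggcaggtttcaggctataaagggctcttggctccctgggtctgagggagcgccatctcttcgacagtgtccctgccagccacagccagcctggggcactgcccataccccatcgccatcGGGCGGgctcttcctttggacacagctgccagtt
The Stra8 window holds AGGTCA at 194 and 38 bases before that start site, and neither of the other 2 windows shown holds it. Among the windows not shown, 1 of Rara and 1 of Rarg also hold AGGTCA. At least 1 AGGTCA, on either strand, stands in 16.3% of 32851 such windows of the genome, and 2 or more in 1.81%. GGGCGG stands in 35.7% of them. Direct repeats of AGGTCA spaced by 2 or by 5 bases are each in 3 windows (0.00913%), none of them of these genes. These are matches of letters only. In the same build, Stra8 and Cyp26b1 lie on chromosome 6, Crabp1, Aldh1a2 and Stra6 on chromosome 9, Rdh10 on 1, Rara on 11, Rarg on 15 and Aldh1a1 on 19.

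Akt1 itself checked the labels in part. At day 15 its probe set lay at 9.74, 9.01 and 9.18 in PTU-exposed and 9.40, 9.23 and 9.04 in unexposed homozygous mice, against 9.92, 9.95 and 10.09 in exposed and 9.34, 9.48 and 9.71 in unexposed wild-type mice. Averaged over exposure, homozygous minus wild type was -0.48 ± 0.15 (log2 difference ± standard error, limma adjusted p = 0.0283). Neither exposure passed alone, at -0.28 ± 0.22 unexposed (limma adjusted p = 0.35) and -0.68 ± 0.22 exposed (limma adjusted p = 0.101). Heterozygous minus wild type was 0.22 ± 0.22 unexposed and -0.55 ± 0.22 exposed, and did not pass (limma adjusted p = 0.553 and 0.849). At day 25 the brightest Akt1 probe set did not pass (-0.06 ± 0.06, limma adjusted p = 0.477), while another was lower (-0.79 ± 0.12, limma adjusted p = 0.000363 over all probe sets). The remaining Akt1 probe sets did not pass (-0.006 ± 0.09 and -0.02 ± 0.12, limma adjusted p = 0.964 and 0.9 over all probe sets). Whether these probe sets lie in the deleted part is not given, so a level that did not differ checks nothing.

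Some arrays carried marks of other tissue or of RNA quality. Spink8, a gene of the epididymis, lay above 7 in 2 unexposed wild-type arrays (9.38 and 7.91) and 1 PTU-exposed homozygous array (8.74) at day 15, and in both PTU-exposed homozygous arrays (12.92 and 12.75), 1 exposed heterozygous array (10.07) and 1 exposed wild-type array (8.72) at day 25. The 3′ minus 5′ difference of the beta-actin control, which grows as RNA is degraded, was 0.953 to 1.44 in all 5 homozygous arrays of day 25 and 0.546 to 0.777 in the other 12. The mean level of 5 fat genes at day 15 was 6.04 to 7.19 in unexposed homozygous arrays and 5.78 to 6.40 in the other groups. At day 15 a second set of 6 arrays, separated by clustering bright probe sets without a symbol, held 3 homozygous and 3 heterozygous arrays and no wild-type array. The tissue was checked on 11 Sertoli cell genes, whose mean level was 9.71 to 10.33 at day 15 and 9.20 to 9.84 at day 25, far above the filter values of 5.56 and 4.76. In whole testis, fewer cells of a type and less RNA per cell cannot be told apart.

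At day 15, the retinol receptor gene Stra6, the retinol dehydrogenase gene Rdh10 and the meiotic entry gene Stra8 were higher in PTU-exposed than in unexposed wild-type mice. Those 3 of 9 genes were higher and none was lower, where 6.53% of all genes tested were higher and 8.75% lower. The median log2 difference of the 9 genes was 0.29, against 0.03 over all genes tested.

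Stra8 lay at 9.88, 9.74 and 9.71 in PTU-exposed wild-type testes, against 9.35, 9.44 and 9.35 in unexposed ones. No exposed array overlapped an unexposed one, and the difference was 0.40 ± 0.11 (1.32-fold, limma adjusted p = 0.0209). Rdh10, whose enzyme makes retinaldehyde, lay at 10.09, 10.08 and 10.02 in exposed wild-type testes and at 9.52, 9.57 and 9.61 in unexposed ones. The groups were far apart relative to their spread, with a difference of 0.50 ± 0.11 (1.41-fold, limma adjusted p = 0.005). Stra6 lay at 9.34, 9.27 and 9.22 in exposed wild-type testes and at 8.75, 8.76 and 8.62 in unexposed ones. These groups did not overlap either, and Stra6 rose by 0.56 ± 0.17 (1.48-fold, limma adjusted p = 0.0324).

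The other 6 genes did not pass in wild-type mice at day 15. Crabp1 came nearest: 10.51, 10.67 and 10.81 in exposed arrays and 10.27, 10.39 and 10.38 in unexposed ones, which do not overlap (0.32 ± 0.11, limma adjusted p = 0.0661). Aldh1a1, the retinaldehyde dehydrogenase gene of Sertoli cells, differed by -0.23 ± 0.11 (limma adjusted p = 0.187). Rara, Cyp26b1, Rarg and Aldh1a2 differed by 0.25, 0.29, 0.21 and 0.10.

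In the other genotypes no retinoid gene passed at day 15. In PTU-exposed against unexposed heterozygous mice 0 of 9 genes passed, against 0.569% of all genes tested, both without pairing the samples. Taking the sample number as a block changed no member's call. Stra8 was 9.47, 9.83 and 9.89 in exposed heterozygous arrays and 9.40, 9.67 and 9.47 in unexposed ones, and the first exposed array lay among the unexposed. Rdh10 (0.34 ± 0.11, limma adjusted p = 0.164) and Stra6 (0.40 ± 0.17, limma adjusted p = 0.307) did not overlap between exposed and unexposed heterozygous arrays, at 9.86 to 10.23 against 9.55 to 9.72 for Rdh10 and at 9.25 to 9.57 against 8.79 to 9.11 for Stra6. In homozygous mice 0 of 9 passed, against 4.96% of all genes tested, and the differences of Stra8, Rdh10 and Stra6 were 0.17 ± 0.11, 0.05 ± 0.11 and 0.07 ± 0.17. Averaged over genotypes, Stra8 (0.26 ± 0.06, limma adjusted p = 0.0116), Rdh10 (0.29 ± 0.06, limma adjusted p = 0.0048) and Stra6 (0.34 ± 0.10, limma adjusted p = 0.0285) were higher with PTU, 3 of 9 genes where 3.88% of all genes were higher, and none was lower, where 8.09% were.

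The number of calls in wild-type mice moved both ways with the processing. It was 7 of 9 with array weights, 6 in a fit of the groups compared alone and 5 with the first array set alone, a setting chosen after seeing the data. The share of all genes that passed under each of these settings is not given here, so these counts say nothing particular about retinoid genes. Without the 3 arrays with Spink8 above 7, which leaves 1 unexposed wild-type array that is assumed to vary like the other groups, the differences of Stra8, Rdh10 and Stra6 were 0.43, 0.54 and 0.52, and none passed (limma adjusted p = 0.169, 0.0619 and 0.0812). With each of the 6 wild-type arrays left out in turn, Rdh10 passed in 6 of 6 fits, Stra8 in 2 and Stra6 in 0. Spermatocyte markers moved with the same contrast: the mean level of 12 genes of pachytene and later spermatocytes was 7.53 to 8.80 in exposed and 9.94 to 10.46 in unexposed wild-type arrays, and 11 of the 12 were lower. Of 7 macrophage genes 6 were lower, and of 11 Sertoli cell genes 5 were higher and 1 lower. Of 12 spermatogonial genes 3 were higher and 2 lower, with a median of 0.37 against 0.03 over all genes. Of 24 meiotic entry genes 1 was higher and 2 were lower, with a median of -0.04. Their part in the differences of the retinoid genes was not tested.

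**Figure D1:**
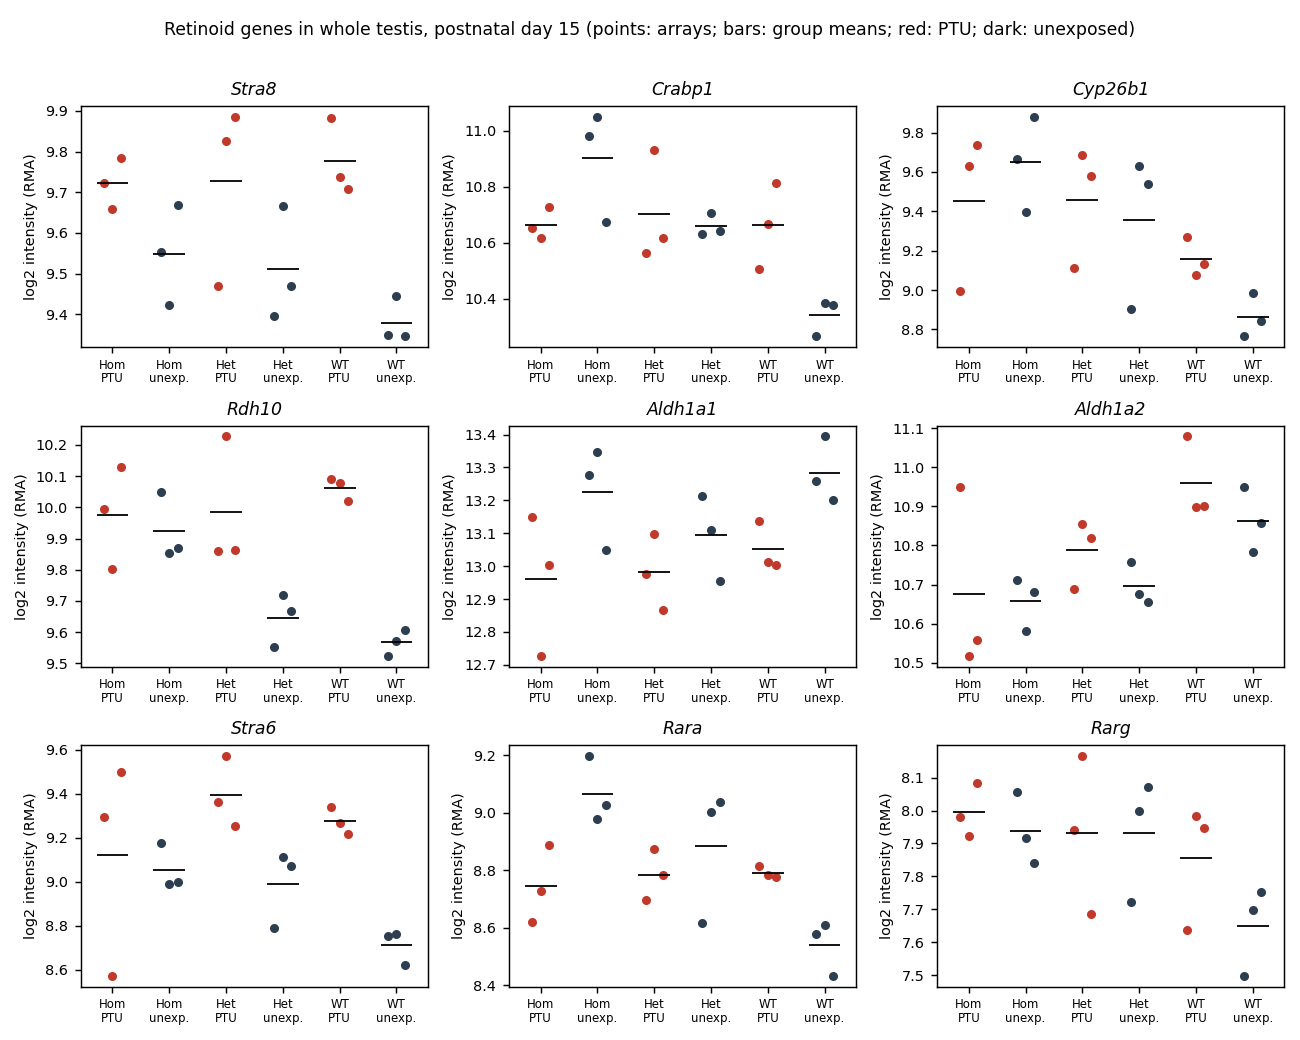
Level of each of the 9 retinoid genes at postnatal day 15, as log2 intensity on the vertical axis, in the 18 arrays by Akt1 genotype and exposure (points are arrays, bars are group means). Stra8, Rdh10 and Stra6 of unexposed wild-type mice sit below those of exposed wild-type mice with no overlap, and Crabp1 and Rara of unexposed homozygous mice sit above those of unexposed wild-type mice.

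Homozygous mice without PTU also differed from unexposed wild-type mice at day 15. The retinoic acid buffer gene Crabp1, the retinoic acid hydroxylase gene Cyp26b1, the receptor gene Rara and Rdh10 were higher, 4 of 9, and none was lower, where 14.6% of all genes tested were higher and 14.2% lower. The unexposed wild-type arrays also serve in the PTU contrast above, so the 2 sets of values are not independent.

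Crabp1 lay at 10.98, 11.05 and 10.68 in unexposed homozygous testes and at 10.27, 10.39 and 10.38 in unexposed wild-type testes. The groups did not overlap, and the difference was 0.56 ± 0.11 (1.47-fold, limma adjusted p = 0.00142). It passed in all 6 fits that left out an array. Rara lay at 9.20, 8.98 and 9.03 in unexposed homozygous arrays, against 8.58, 8.61 and 8.43 in unexposed wild-type arrays. Every homozygous array was above every wild-type array (0.53 ± 0.11, 1.44-fold, limma adjusted p = 0.00183).

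Cyp26b1 lay at 9.67, 9.40 and 9.88 in unexposed homozygous testes and 8.77, 8.98 and 8.84 in unexposed wild-type testes, a difference of 0.78 ± 0.21 (1.72-fold, limma adjusted p = 0.00895). Across all groups Cyp26b1 was 9.54 to 9.88 in the second array set and 8.77 to 9.69 in the first. Rdh10 was higher by 0.36 ± 0.11 (limma adjusted p = 0.0184), at 10.05, 9.85 and 9.87 in unexposed homozygous arrays and 9.52, 9.57 and 9.61 in unexposed wild-type ones. Without the arrays with Spink8 above 7, which leaves 1 unexposed wild-type array, the differences of Cyp26b1, Rara and Rdh10 were 0.88, 0.49 and 0.40 and did not pass (limma adjusted p = 0.073, 0.0665 and 0.0955), and that of Crabp1 was 0.64 and passed (limma adjusted p = 0.0261). Stra8 did not pass in this contrast (0.17 ± 0.11, limma adjusted p = 0.268).

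Other lists moved with this contrast. All 12 genes of pachytene and later spermatocytes were lower, with a mean level of 6.34 to 7.35 in unexposed homozygous arrays and 9.94 to 10.46 in unexposed wild-type arrays. Of 24 meiotic entry genes, 13 were lower and 3 higher, with a median of -0.36 against 0.08 over all genes; Spo11, which makes the breaks that start recombination, fell by 1.58, and Syce1, a synaptonemal complex gene, fell by 1.20. Of 12 genes of undifferentiated and differentiating spermatogonia, 8 were higher and 1 lower. Of 11 Sertoli cell genes, 6 were higher and none lower. Of 3 fat genes tested, 1 was higher and none lower, with a median of 1.02. The mean level of the 5 fat genes measured was 6.04 to 7.19 in unexposed homozygous arrays and 5.78 to 6.05 in unexposed wild-type arrays. Their part in the retinoid genes' differences was not tested.

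Heterozygous mice without PTU showed no passing retinoid gene against wild-type mice at day 15 (0 of 9, where 3.95% of all genes passed, and 7.80% with the sample number as a block). In PTU-exposed mice, 0 of 9 differed between homozygous and wild-type mice, and 0% of all genes tested passed in limma (4266 genes had an unadjusted p under 0.05, and 4.49% passed with the sample number as a block). Between heterozygous and wild-type exposed mice, 0 of 9 and again 0% of all genes passed (887 with an unadjusted p under 0.05). Averaged over exposure, heterozygous mice had 0 of 9, against 0.999%. Averaged over exposure, homozygous mice had higher Crabp1 (0.28 ± 0.08), Cyp26b1 (0.54 ± 0.15) and Rara (0.24 ± 0.08) and lower Aldh1a2 (-0.24 ± 0.07), with limma adjusted p = 0.0173, 0.0131, 0.0307 and 0.0233. Aldh1a2 lay at 10.95, 10.52 and 10.56 in exposed and 10.71, 10.58 and 10.68 in unexposed homozygous arrays, against 11.08, 10.90 and 10.90 in exposed and 10.95, 10.78 and 10.86 in unexposed wild-type arrays, so that 1 exposed homozygous array lay among the wild-type ones. The 4 genes are 3 higher of 9, against 13.4% of all genes, and 1 lower, against 14.8%. With the array set as a block, only Crabp1 of these 4 passed, and Cyp26b1, Rara and Aldh1a2 had limma adjusted p = 0.0714, 0.135 and 0.0954.

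The effect of PTU at day 15 differed between homozygous and wild-type mice for the buffer gene Crabp1 and the receptor gene Rara. The difference of the effects was -0.56 ± 0.16 for Crabp1 (limma adjusted p = 0.0259) and -0.57 ± 0.16 for Rara (limma adjusted p = 0.0193), 2 of 9 lower against 8.13% of all genes and none higher against 8.23%. Exposed minus unexposed, Crabp1 differed by -0.24 ± 0.11 in homozygous mice and 0.32 ± 0.11 in wild-type mice, and Rara by -0.32 ± 0.11 in homozygous mice and 0.25 ± 0.11 in wild-type mice, none of which passed alone. In the test of heterozygous against wild-type mice, 0 of 9 passed, against 0.449% of all genes. Without the arrays with Spink8 above 7, again with 1 unexposed wild-type array left, the differences of the effects were -0.61 for Crabp1 and -0.52 for Rara, and neither passed (limma adjusted p = 0.116 and 0.156). With 1 array left out at a time Crabp1 passed in 6 of 12 fits and Rara in 10 of 12. By the same test all 12 genes of pachytene and later spermatocytes were higher, with a median of 3.16 against -0.04 over all genes, 4 of 12 spermatogonial genes were lower and 1 higher, and 4 of 11 Sertoli cell genes were lower. Their part in the values of Crabp1 and Rara was not tested.

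**Figure D2:**
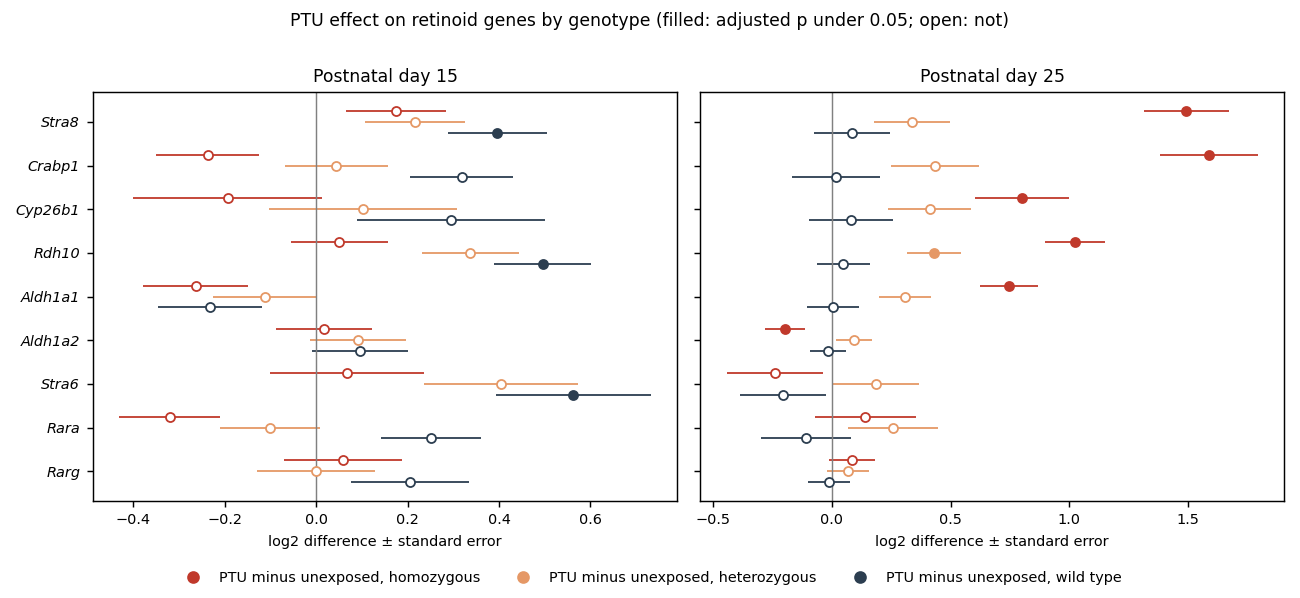
Log2 difference of PTU-exposed minus unexposed mice with its standard error on the horizontal axis, for each retinoid gene in homozygous, heterozygous and wild-type mice, at day 15 and day 25 (filled points passed at an adjusted p of 0.05). At day 15 the filled points are Stra8, Rdh10 and Stra6 in wild-type mice, and at day 25 they are 6 genes in homozygous mice and Rdh10 in heterozygous mice.

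At day 25 the exposed homozygous mice stood apart. Stra8, Crabp1, Rdh10, Cyp26b1 and Aldh1a1 were higher and Aldh1a2 was lower with PTU in homozygous mice, 5 higher of 9 against 38.4% of all genes tested, and 1 lower against 32.8%. Since 71.2% of all genes passed in either direction, the count says nothing particular about retinoid genes. The exposed group has 2 arrays, both with the highest Spink8 of the age.

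Stra8 lay at 10.77 and 11.08 in PTU-exposed homozygous testes, against 9.50, 9.40 and 9.40 in unexposed homozygous testes. It lay at 9.16 to 10.01 in the other 12 arrays of day 25, so both exposed homozygous arrays exceeded every other array. The difference was 1.49 ± 0.18 (2.81-fold, limma adjusted p = 3.95e-06).

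Crabp1 lay at 9.40 and 9.88 in exposed homozygous testes and at 8.39, 7.64 and 8.12 in unexposed homozygous testes, and at 7.49 to 8.65 elsewhere. The difference was 1.59 ± 0.21 (3.01-fold, limma adjusted p = 7.9e-06). Rdh10 lay at 9.26 and 9.61 in exposed and 8.33, 8.41 and 8.47 in unexposed homozygous testes by its brighter probe set (1.02 ± 0.13, 2.03-fold, limma adjusted p = 4.87e-06). Its dimmer probe set lay at 7.49 and 8.08 in exposed and 6.41, 6.05 and 6.14 in unexposed homozygous testes, a difference of 1.59 ± 0.19. Both probe sets put the exposed homozygous arrays above every other array.

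Aldh1a1 lay at 13.37 and 13.55 in exposed and 12.66, 12.88 and 12.59 in unexposed homozygous testes (0.75 ± 0.12, 1.68-fold, limma adjusted p = 6.85e-05). The retinoic acid hydroxylase gene Cyp26b1 lay at 9.67 and 10.10 in exposed and at 9.08, 9.08 and 9.09 in unexposed homozygous testes. Its exposed arrays overlapped those of other groups, which reached 9.87, and the difference was 0.80 ± 0.20 (1.74-fold, limma adjusted p = 0.00199). Aldh1a2, the retinaldehyde dehydrogenase gene of germ cells, lay at 11.29 and 11.15 in exposed and at 11.32, 11.49 and 11.45 in unexposed homozygous testes, a small difference of -0.20 ± 0.08 (limma adjusted p = 0.0462). It lost the call in 9 of 14 alternative fits, 3 of the 5 that left out an array among them, with values of -0.27 to -0.13 (highest limma adjusted p = 0.289). Rara (0.14 ± 0.21), Rarg (0.08 ± 0.10) and Stra6 (-0.24 ± 0.20) did not pass.

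Stra8, Crabp1, Rdh10 and Aldh1a1 passed in homozygous mice under every alternative that could be fitted, the 5 fits that left out an array among them, with Stra8 between 1.34 and 1.65 in those 5. Both exposed homozygous arrays carry Spink8 at 12.75 or more, so no value exists without such arrays. Of 7 epididymis genes measured, 5 were tested, and 3 were higher and 1 lower in this contrast; the mean level of the 7 was 6.61 and 6.70 in exposed homozygous arrays and 5.06 to 5.26 in unexposed ones. Adam7 was 8.38 and 8.50 in exposed and 4.27 to 4.68 in unexposed homozygous arrays, while Lcn8 was 4.96 and 4.99 in exposed and 4.76 to 5.08 in unexposed ones. Rnase10 was 5.13 and 7.01 in exposed and 7.89 to 8.29 in unexposed homozygous arrays. Of 4 fat genes 3 were higher, with a mean level of 8.21 and 8.85 in exposed and 5.71 to 5.97 in unexposed homozygous arrays. That level was also 6.80 to 10.01 in exposed and 5.68 to 5.87 in unexposed wild-type arrays of day 25. In heterozygous arrays it was 5.84 to 7.61 with PTU and 5.80 to 7.62 without. The part of these other tissues in the retinoid genes' differences was not tested.

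**Figure D3:**
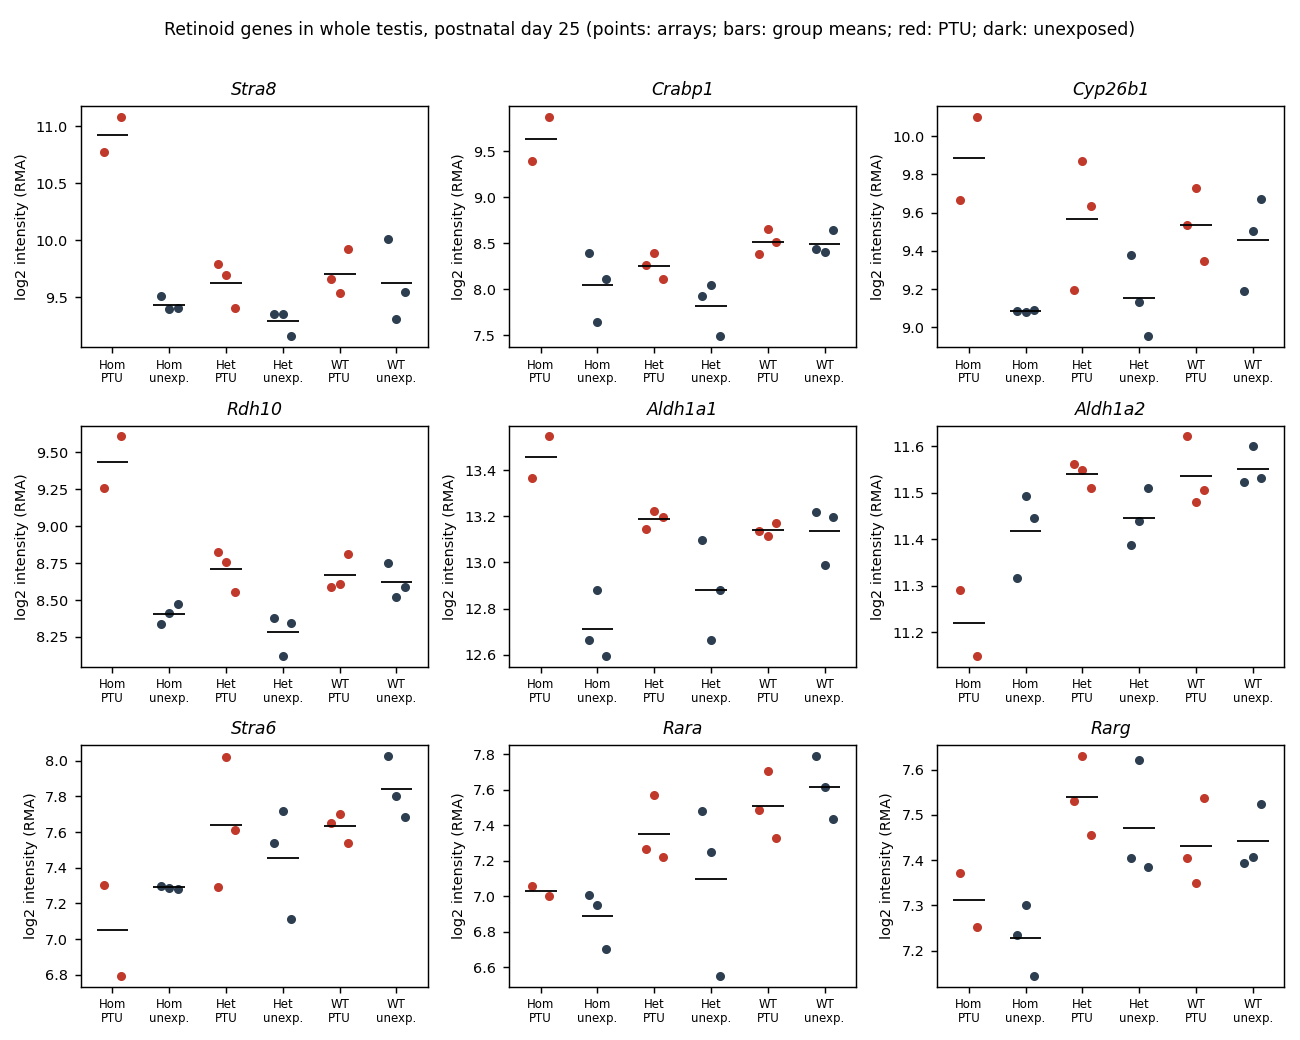
Level of each of the 9 retinoid genes at postnatal day 25, as log2 intensity on the vertical axis, in the 17 arrays by Akt1 genotype and exposure (points are arrays, bars are group means). Both exposed homozygous arrays lie above all others for Stra8, Crabp1, Rdh10 and Aldh1a1.

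Marker lists are given for the same contrast, in which 38.4% of all genes were higher and 32.8% lower. All 12 spermatogonial genes were higher, with a median of 1.05, and all 12 genes of pachytene and later spermatocytes were lower, with a median of -1.56. The spermatocyte list averaged 10.44 and 11.88 in the 2 exposed homozygous arrays, against 12.74 to 12.95 in unexposed homozygous arrays. Of 22 meiotic entry genes, 14 were higher and 5 lower. Dmc1, a recombinase of early meiotic prophase, rose by 1.46 ± 0.14, and Rec8, the meiotic cohesin gene, fell by 1.95 (standard error 0.18). Dmrt1, a regulator of spermatogonia, rose by 1.47 ± 0.15. Among somatic lists, 7 of 11 Sertoli cell genes were higher and 2 lower, 4 of 6 peritubular myoid genes were higher and 1 lower, and 2 of 4 endothelial genes were higher. Of 5 Leydig cell genes 2 were lower, of 7 macrophage genes 4 were lower, and the 1 erythroid gene tested was lower. Their part in the retinoid genes' differences was not tested.

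Among 26 other retinoid pathway genes tested, 14 were higher and 8 lower in PTU-exposed homozygous mice at day 25, where 38.4% of all genes were higher and 32.8% lower, with a median of 0.52 against 0.02 over all genes. Crabp2, another retinoic acid binding protein gene, rose by 1.88 ± 0.15 (limma adjusted p = 2.21e-07). Adh5 rose by 1.61 ± 0.13, and the receptor corepressor gene Nrip1 rose by 1.59 ± 0.16. Adh7, a retinol-oxidising alcohol dehydrogenase gene, fell by 1.71. At day 15 this list had 1 higher and 2 lower of 27 with PTU in wild-type mice, against 6.53% and 8.75% of all genes. There Rdh11 fell by 1.15 ± 0.21 and Lrat, which esterifies retinol, fell by 0.92. In unexposed homozygous against wild-type mice of day 15 it had 6 higher and 3 lower of 27, against 14.6% and 14.2%, and Rdh11 fell by 1.76 ± 0.21.

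**Figure D4:**
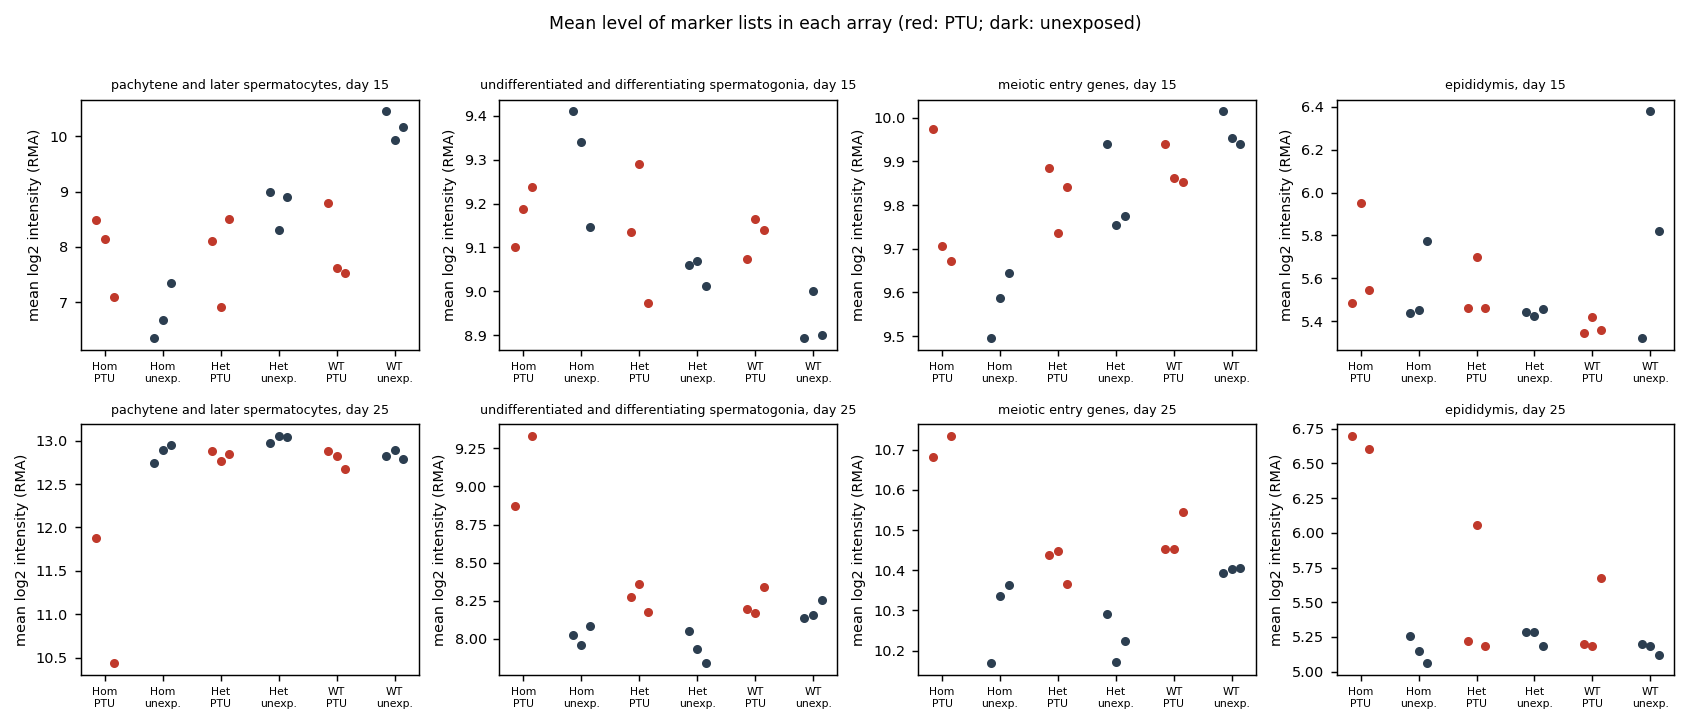
Mean log2 intensity of 4 marker lists in each array at day 15 (upper row) and day 25 (lower row), by genotype and exposure. Pachytene and later spermatocyte genes sit at 9.94 to 10.46 in unexposed wild-type arrays of day 15, and at 10.44 and 11.88 in exposed homozygous arrays of day 25.

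No retinoid gene passed with PTU in wild-type mice at day 25. The count was 0 of 9, and 0% of all genes tested did (limma without pairing, 978 with an unadjusted p under 0.05). Taking the sample number as a block changed no member's call here either. Stra8 was 9.65, 9.54 and 9.92 in exposed wild-type arrays and 10.01, 9.30 and 9.54 in unexposed ones, which overlap. The difference of 0.08 ± 0.16 leaves a range of -0.24 to 0.41 at 2 standard errors. The mean level of 4 fat genes was 6.80 to 10.01 in exposed and 5.68 to 5.87 in unexposed wild-type arrays, though none of the 4 passed. Their part was not tested.

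In heterozygous mice Rdh10 rose with PTU, at 8.82, 8.76 and 8.56 in exposed and 8.38, 8.12 and 8.35 in unexposed arrays (0.43 ± 0.11, 1.35-fold, limma adjusted p = 0.0179). That is 1 of 9 higher, where 11.5% of all genes were higher, and none lower, where 7.2% were. The call was lost in 3 of the 6 fits that left out an array (highest limma adjusted p = 0.0973). Aldh1a1, Crabp1, Cyp26b1 and Stra8 differed by 0.31, 0.43, 0.41 and 0.34 and did not pass. In this contrast 5 of 11 Sertoli cell genes and 3 of 12 spermatogonial genes were higher and none lower, and of 22 meiotic entry genes 7 were higher and 1 lower; their part was not tested.

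Averaged over genotypes at day 25, Stra8 (0.64 ± 0.10), Crabp1 (0.68 ± 0.11), Rdh10 (0.50 ± 0.07), Cyp26b1 (0.43 ± 0.11) and Aldh1a1 (0.35 ± 0.07) were higher with PTU. They are 5 of 9, against 36.3% of all genes, and none was lower, against 27.6%. In the same order, the differences were 1.49, 1.59, 1.02, 0.80 and 0.75 in homozygous mice. They were 0.34, 0.43, 0.43, 0.41 and 0.31 in heterozygous and 0.08, 0.02, 0.05, 0.08 and 0.005 in wild-type mice. The effect of PTU differed between homozygous and wild-type mice for the same 5 genes, 5 of 9 higher against 33.1% of all genes and none lower against 26.3%. The difference of the effects was, for Crabp1, 1.57 ± 0.28 (limma adjusted p = 0.000274), for Stra8 1.41 ± 0.24 (limma adjusted p = 0.000222), for Rdh10 0.98 ± 0.17 (limma adjusted p = 0.000243), for Aldh1a1 0.74 ± 0.16 (limma adjusted p = 0.0014) and for Cyp26b1 0.72 ± 0.26 (limma adjusted p = 0.0288). Cyp26b1 lost this call in 7 of 20 alternative fits, at values of 0.50 to 0.94 over all 20 (highest limma adjusted p = 0.163). Between heterozygous and wild-type mice, 0 of 9 differed and 0% of all genes passed (limma, 2982 with an unadjusted p under 0.05).

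Rara and Aldh1a1 were lower in unexposed homozygous than in unexposed wild-type mice at day 25. They are 2 of 9 lower, against 7.32% of all genes, and none was higher, against 5.35%. The receptor gene Rara lay at 7.01, 6.95 and 6.71 in unexposed homozygous testes and at 7.79, 7.62 and 7.44 in unexposed wild-type testes (-0.72 ± 0.19, limma adjusted p = 0.0263). Aldh1a1 lay at 12.66, 12.88 and 12.59 in unexposed homozygous testes, against 13.22, 12.99 and 13.20 in unexposed wild-type testes (-0.42 ± 0.11, limma adjusted p = 0.0258). Neither pair of groups overlapped. With the actin difference as a covariate, which separates the homozygous arrays from the rest, neither passed (Rara -0.20, limma adjusted p = 0.661; Aldh1a1 -0.50, limma adjusted p = 0.119), so genotype and RNA quality cannot be told apart here. Rara passed in 1 of the 6 fits that left out an array, and Aldh1a1 in 2.

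In heterozygous mice without PTU, 2 of 9 were lower, against 14.3% of all genes, and none was higher, against 8.32%. Crabp1 lay at 7.93, 8.05 and 7.49 in unexposed heterozygous testes and at 8.44, 8.40 and 8.65 in unexposed wild-type testes, with no overlap (-0.68 ± 0.18, limma adjusted p = 0.0184). Rdh10 differed by -0.34 ± 0.11 (limma adjusted p = 0.0444) and passed in 2 of the 6 fits that left out an array, while Crabp1 passed in 4. These unexposed heterozygous arrays also serve in the PTU contrast of heterozygous mice, so the 2 sets of values are not independent. Of 11 Sertoli cell genes 5 were lower, of 22 meiotic entry genes 7 and of 12 spermatogonial genes 2, and none of them was higher; their part was not tested.

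Exposed homozygous mice differed from exposed wild-type mice in 6 of 9 genes at day 25, 4 higher against 32.7% of all genes and 2 lower against 28.4%. Stra8 was higher by 1.22 ± 0.18 (limma adjusted p = 4.6e-05), Crabp1 by 1.12 ± 0.21 (limma adjusted p = 0.000279), Rdh10 by 0.76 ± 0.13 (limma adjusted p = 0.000116) and Aldh1a1 by 0.32 ± 0.12 (limma adjusted p = 0.0356). Aldh1a2 lay at 11.29 and 11.15 in exposed homozygous testes, below 11.62, 11.48 and 11.51 in exposed wild-type testes, and fell by 0.31 (limma adjusted p = 0.00459). Stra6 lay at 7.30 and 6.80 in exposed homozygous testes and at 7.65, 7.70 and 7.54 in exposed wild-type testes, and fell by 0.58 (limma adjusted p = 0.0221). Stra6 passed in 3 of the 5 fits that left out an array and Aldh1a1 in 1. With the actin difference as a covariate none of the 6 passed. Stra8 was then at 1.07, Crabp1 at 0.98, Rdh10 at 0.34, Aldh1a1 at 0.21, Aldh1a2 at -0.28 and Stra6 at 0.23. In the same contrast of exposed homozygous and wild-type mice, all 12 genes of pachytene and later spermatocytes were lower (median -1.65). Of 12 spermatogonial genes 10 were higher and 0 lower, and of 11 Sertoli cell genes 7 were higher and 3 lower. Both exposed homozygous arrays had Spink8 at 12.75 or more. The part of other cells and tissue was not tested. Exposed heterozygous and wild-type mice differed in 0 of 9 genes, against 0.092% of all genes.

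Averaged over exposure at day 25, homozygous mice had 2 higher of 9 (Stra8, Rdh10), against 20.6% of all genes, and 3 lower (Rara, Stra6, Aldh1a2), against 21.8%. With the actin difference as a covariate none passed: Stra8 was at 0.38 and Aldh1a2 at -0.19, while Rdh10 (-0.095), Rara (0.0054) and Stra6 (0.15) changed sign. Heterozygous mice had lower Crabp1 (-0.47 ± 0.13, limma adjusted p = 0.0237), 1 of 9 against 12.2%, and none was higher, against 6.67%.

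**Figure D5:**
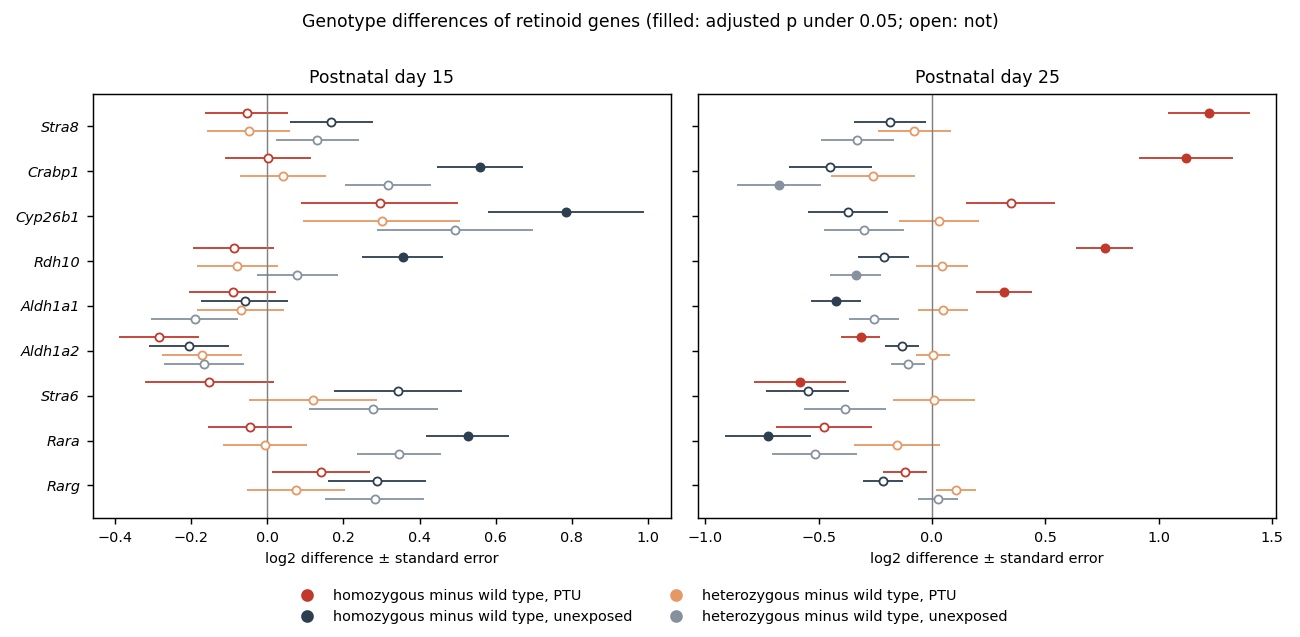
Log2 difference between genotypes with its standard error on the horizontal axis, for each retinoid gene in PTU-exposed and unexposed mice, at day 15 and day 25 (filled points passed at an adjusted p of 0.05). At day 15 the filled points are Crabp1, Cyp26b1, Rara and Rdh10 in unexposed homozygous mice, and at day 25 Stra8, Crabp1, Rdh10 and Aldh1a1 lie to the right in exposed homozygous mice.

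Rarg, the receptor gene used by spermatogonia, passed in no contrast at either age. It lay at 7.98, 7.92 and 8.08 in exposed and 8.06, 7.92 and 7.84 in unexposed homozygous mice at day 15, and at 7.64, 7.98 and 7.95 in exposed and 7.50, 7.70 and 7.75 in unexposed wild-type mice. At day 25 its brighter probe set spanned 7.15 to 7.63 over all 17 arrays.

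Across all arrays of an age, the genes most like each member by Pearson correlation were found as a description; the arrays share their groups, so these values carry no test. At day 25 Stra8 was most like Rbmx2 (r = 0.986 over 17 arrays, 0.924 over the 15 without exposed homozygous mice), then Syngr1 and Wdr74. Crabp1 was most like Dusp12 (0.970) and Rdh10 most like Cpe (0.984). At day 15, over 18 arrays, Rara was most like Ddr1 (0.966), Crabp1 most like Ptpn14 (0.952), Aldh1a1 most like Hpgd (0.951) and Aldh1a2 most like Prdm9 (0.896), which marks recombination sites in meiosis.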

How the data were processed

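Total RNA from mouse testes was hybridised to Affymetrix arrays, 18 at postnatal day 15 and 17 at day 25, each age on its own array type. The deposited values are log2 intensities made by the authors with RMA, per the submitters' processing notes; the version of RMA is not stated there. They were used as deposited. Symbols came from the platform annotation, updated by gene ID to RefSeq GRCm38.p6; of 35556 probe sets at day 15, 21789 had 1 symbol, 1621 several and 12146 none, and of 45101 at day 25 the numbers were 34958, 932 and 9211. Probe sets with several symbols were left out, and where a gene had several, its brightest one was kept. A gene was tested where 2 or more arrays exceeded the 25th percentile of the whole table, which was 5.56 at day 15 and 4.76 at day 25.

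The ages were fitted separately with limma 3.58.1 in R 4.3.3 (a mean for each of 6 groups, contrasts and moderated variances), and p-values were adjusted by Benjamini-Hochberg over all genes tested, with a threshold of 0.05. The main fit held no block for the sample number. It was tested on simulated data. No label says that the mice came from separate litters, so p-values measure the spread between these mice, and the number of arrays limits the precision. The numbers in the labels were taken to pair samples where every pair's residuals correlated above 0.1: at day 15 for PTU in heterozygous mice (0.391 to 0.444), homozygous against wild-type exposed mice (0.141 to 0.557) and heterozygous against wild-type unexposed mice (0.181 to 0.374), and at day 25 for PTU in wild-type mice (0.233 to 0.396). Named genes are the 9 members, Akt1, up to 4 genes of each list with the smallest p among those past the threshold, marker genes that move with a member or mark another tissue, and the 3 genes most correlated with a member. The lists cover other retinoid genes, meiotic entry, spermatogonia, spermatocytes, Sertoli, Leydig, peritubular myoid, endothelial and erythroid cells, macrophages, epididymis and fat. The members and lists were chosen with earlier results of these data known. Alternatives covered the filter, the choice of probe set, quantile normalization, the arrays in the fit, array weights, the sample number as a block, each array left out, arrays with high Spink8, the array set and the actin difference.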

Additional observations from a re-analysis of the deposited data

Results flagged for a closer look

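The effect of PTU differed between homozygous and wild-type mice, by the interaction test, for 7 results. At day 15 the difference of the effects was -0.56 for Crabp1 (limma adjusted p = 0.0259) and -0.57 for Rara (limma adjusted p = 0.0193). At day 25 it was 1.41 for Stra8 (limma adjusted p = 0.000222), 1.57 for Crabp1 (limma adjusted p = 0.000274), 0.98 for Rdh10 (limma adjusted p = 0.000243), 0.74 for Aldh1a1 (limma adjusted p = 0.0014) and 0.72 for Cyp26b1 (limma adjusted p = 0.0288), which lost the call in 7 of 20 alternative fits. Crabp1 is the gene of this set with a difference at both ages, below 0 at day 15 and above 0 at day 25, on 2 array types that were not compared. At day 25, 59.4% of all genes tested had such a difference, and the exposed homozygous group held 2 arrays, both with Spink8 at 12.75 or more.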

How the results depend on the processing

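Of 49 results past the threshold for a single gene, recomputed in 936 alternative fits, 802 kept the call and direction, 130 lost the call and 4 reversed; of 456 recomputed counts of members, 64 moved by over 1.5 times. The reversals came with the actin difference as a covariate at day 25, which overlaps genotype: Stra6 0.23 in homozygous against wild-type exposed mice, and, averaged over exposure, Rara 0.0054, Rdh10 -0.095 and Stra6 0.15. Among values beyond 2 standard errors that had not passed, the same covariate turned Stra6 (0.068, unexposed) and Rara (0.21, exposed), and Rarg averaged (0.019). With that covariate 0 members passed in each of the 3 homozygous against wild-type contrasts of day 25. Another 126 results had not passed and lay within 2 standard errors. In 2411 alternative fits of them, 150 values changed sign and 7 passed, with 0 doing both.

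At day 15, without arrays with Spink8 above 7, 0 members passed for PTU in wild-type mice, 1 for homozygous against wild type unexposed, 0 averaged and 0 in the interaction; at day 25 that setting removes the exposed homozygous group and gives no value for its contrasts. The counts of members in this section are given without the share of all genes that passed, so they say nothing particular about retinoid genes. With array weights at day 15, 7 members passed for PTU in wild-type mice and 7 for homozygous against wild type unexposed. In heterozygous against wild-type mice 3 passed unexposed and 1 averaged over exposure, and 4 passed in the interaction. At day 25 the array weights gave 2 for PTU in heterozygous mice and 2 for heterozygous against wild type averaged. For homozygous against wild type of day 25 the counts were 5 unexposed, 3 exposed and 3 averaged. In fits of the groups compared alone they were 6 for PTU in wild-type mice and 1 for heterozygous unexposed at day 15. Heterozygous against wild type unexposed at day 25 gave 1 with the mean over probe sets, quantile normalization, every probe set tested or the groups alone; quantile normalization gave 1 for the day 15 interaction. The array set as a block gave 1, and the first set alone (chosen after seeing the data) 0, for homozygous against wild type averaged at day 15, and the first set gave 5 for PTU in wild-type mice.

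Leaving out 1 array, the counts ranged, at day 15, from 1 to 2 for PTU in wild-type mice, 1 to 4 for homozygous against wild type averaged, 0 to 1 exposed, 0 to 4 for the interaction and 0 to 2 for heterozygous unexposed; at day 25, from 0 to 2 for PTU in heterozygous mice, 0 to 2 for homozygous unexposed, 3 to 7 exposed, 0 to 4 for heterozygous unexposed and 0 to 2 averaged. Taking the sample number as a replicate block gave 2 for heterozygous against wild type averaged at day 25, where the numbers do not pair the mice; in the paired contrasts the block changed no member's call.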
